A study of Mus musculus with 9 samples.

Results

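Cytosolic ribosomal proteins are the protein part of the ribosome in the cytoplasm, and their genes were followed here as a module across naive, Th1 and Th17 CD4+ T cells of BALB/c mice. Members were the genes whose symbol begins with Rpl or Rps and a digit, plus Rpsa, without the Rps6k kinases and without symbols marking pseudogenes or unnamed clones. The array carried 85 such genes among 32451 genes and unnamed sequences. Of these, 43 encode core proteins of the large subunit and 31 core proteins of the small subunit. Another 9 are paralogs, and the rule also took in 2 genes that encode no core protein, Rps19bp1 (a protein that binds Rps19) and Rps23rg1 (a retrogene of Rps23). After a filter on dim probes 83 members were tested. Rpl10l and Rpl3l, paralogs known from testis and from muscle, were not above background on enough arrays to be tested.

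The Th1 cells were CD3+CD4+CD45RB low, positive for interferon gamma and negative for IL-17A. The Th17 cells were CD3+CD4+CD45RB low with the opposite cytokine pattern, and the naive cells were CD3+CD4+CD45RB high. All groups came from spleen and lymph node cells that were enriched for CD4 and then stimulated before the sort. Stimulation lasted 3 h, with PMA at 10 ng/ml together with ionomycin at 500 ng/ml, so the naive cells were stimulated too. Each group had 3 one-colour arrays with 0.5 µg of labelled RNA per array. The labels do not say whether the 3 samples of a group came from separate mice or whether mice were pooled, so p-values measure the spread between these samples. They name a pair of RNA kits without saying which sample was prepared with which.

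A ribosome joins a small subunit, which reads the mRNA, and a large subunit, which forms the peptide bond. Each protein is needed in about equal copy number, and most of their mRNAs in mammals begin with a run of pyrimidines (the TOP motif), through which mTORC1 and the RNA-binding protein Larp1 set their translation. Naive T cells are small and make little protein, and activation is known to raise ribosome production and protein synthesis. These mRNAs are known to be among the most abundant in lymphocytes. Most of their probes lay at the bright end of these arrays, where the way arrays are scaled to each other matters most.

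Start sites of 65 members were found in the RefSeq promoter table (build GRCm38.p6). The windows below show the 20 bases before and the 20 bases from the start, 5′ to 3′ on the strand of the gene, with runs of at least 6 pyrimidines within 10 bases of the start in capitals. They are shown for members whose probes fell most, for the S6 kinase substrate Rps6, and for 3 members that did not pass the test. For a gene with several starts the start with the longest run is shown.
Rps19, chr7:24884893-24884932, + strand: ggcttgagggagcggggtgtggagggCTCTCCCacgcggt
Rps7, chr12:28635934-28635973, - strand: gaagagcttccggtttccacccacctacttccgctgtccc
Rpl36a, chrX:134585634-134585673, + strand: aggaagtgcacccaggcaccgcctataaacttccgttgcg
Rpl31, chr1:39367831-39367870, + strand: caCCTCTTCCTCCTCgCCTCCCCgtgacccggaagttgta
Rps21, chr2:180257359-180257398, + strand: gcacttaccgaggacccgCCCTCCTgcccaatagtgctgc
Rpl39, chrX:37085203-37085242, - strand: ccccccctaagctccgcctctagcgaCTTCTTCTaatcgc
Rps6, chr4:86857348-86857387, - strand: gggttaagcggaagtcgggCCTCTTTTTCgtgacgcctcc
Rpsa, chr9:120127746-120127785, + strand: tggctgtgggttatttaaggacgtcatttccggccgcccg
Rpl4, chr9:64173367-64173406, + strand: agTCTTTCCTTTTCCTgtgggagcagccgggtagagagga
Rps27, chr3:90213629-90213668, - strand: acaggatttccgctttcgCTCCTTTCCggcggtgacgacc

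A run of at least 8 pyrimidines that touched the 10 bases on either side of a listed start was found in 30 of 65 members (46.2%) and in 15.7% of 26960 other genes. Such a run can lie wholly before the start, as in Rpl4 above, or begin after it, as in Rpl39. These are therefore not counts of TOP motifs, which begin the mRNA. In the whole window of 300 bases, searched on both strands and with overlaps allowed, CCGGAA was found in 34 members (52.3%) against 16.6% of other genes. The letters CTTTCC were found in 34 members (52.3%) against 29.3%, and ATGGCG in 21 members (32.3%) against 10.2%. The 30 members with a run had a median log2 change of -0.54 in Th1 against naive cells, and the 33 tested members with a listed start but no such run had -0.49. In Th17 cells these medians were -0.41 and -0.38. Among the sequences above, Rpl4 has the longest run, 14 bases, and did not pass the test, whereas no run was marked for Rps7 and Rpl36a, which were among those that fell most.

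With each array set to its 75th percentile, probes of ribosomal protein genes were dimmer in both effector populations than in naive cells. In Th1 cells 74 of 83 members were lower (adjusted p under 0.05, limma), 0 were higher and 9 did not pass. The background in this comparison was 30.4% of 19134 genes and sequences called lower and 23.5% called higher. The median log2 change of the members was -0.51, against -0.09 for everything tested. In Th17 cells 51 members were lower and 0 higher, with a median of -0.38 against -0.09, where 29.7% of everything tested was called lower and 24.4% higher. The 51 members called in Th17 cells were all among the 74 called in Th1 cells. These comparisons share the naive arrays. All naive arrays lay on a slide with no Th17 array, and with slide as a block 2 members, Rps3a1 and Rps19bp1, were called in Th17 cells and 34 in Th1 cells, so the Th17 calls given below for single members are, with those 2 exceptions, lost under that block.

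**Figure D1:**
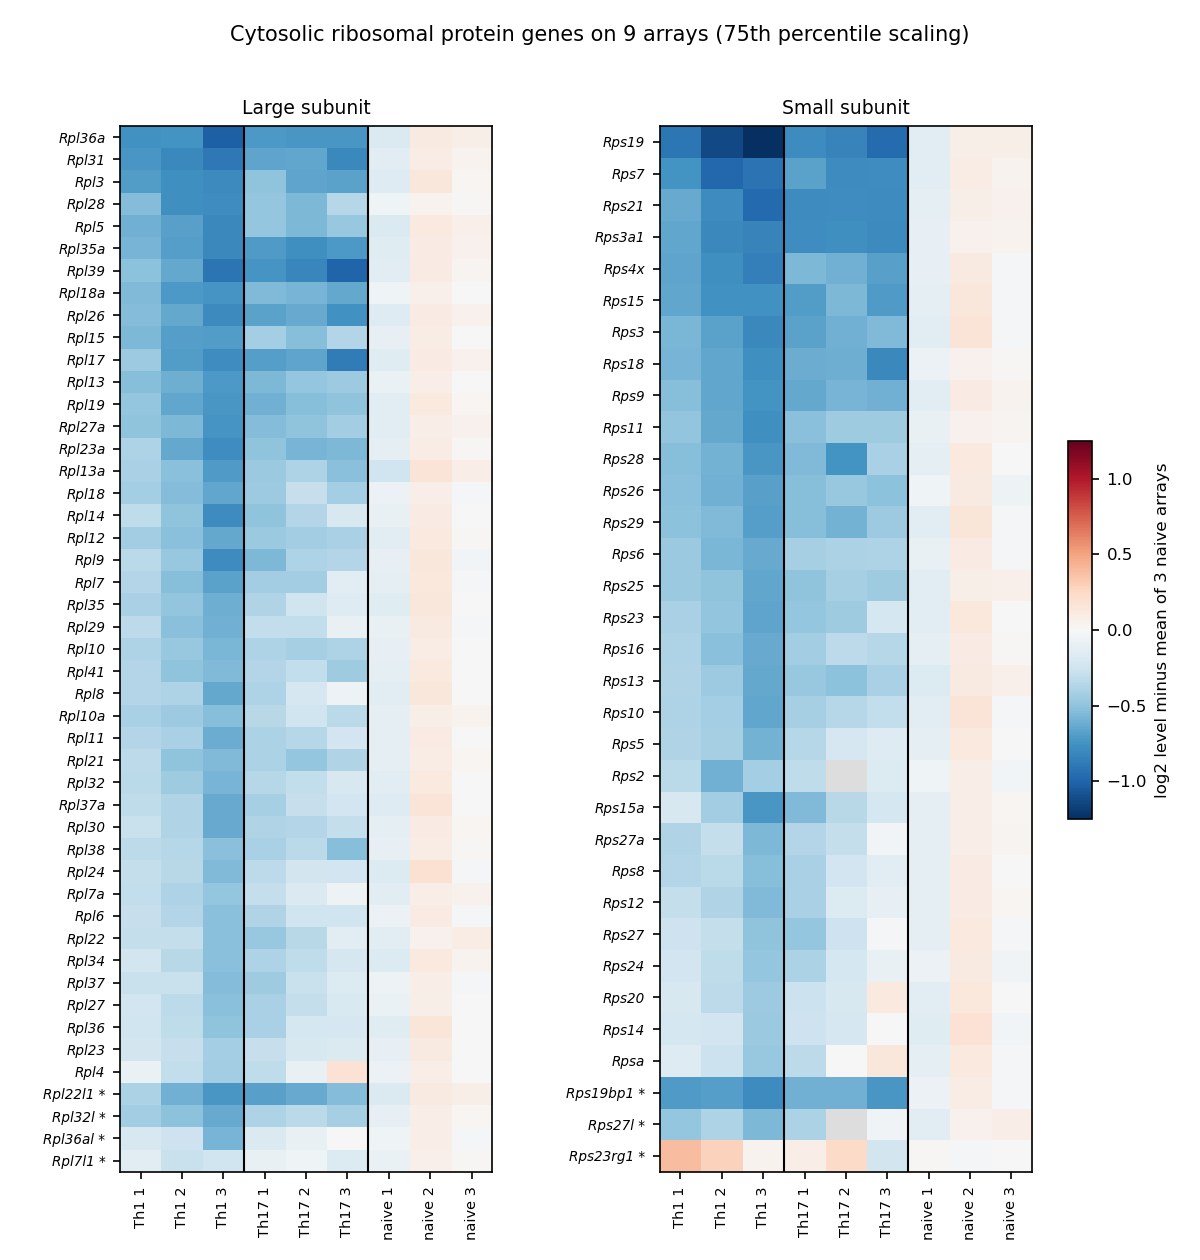
Log2 level of 80 ribosomal protein genes on each of 9 arrays (columns, Th1, Th17 and naive) minus the mean of the 3 naive arrays, by subunit, with core genes in order of the Th1 change and other members below them (asterisks). Blue is lower and red higher than naive, grey is a missing value, and the dim probes of Rps4l and Rpl39l are left out. The Th1 and Th17 columns are blue for nearly all core genes, Th1 replicate 3 is mostly the deepest, and Rps23rg1 is red on all Th1 arrays or near 0.

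The fall was shared by both subunits. In Th1 cells 42 of 43 core proteins of the large subunit were lower, with a median of -0.50, and 27 of 31 of the small subunit, with a median of -0.54. In Th17 cells 28 of 43 large-subunit genes (median -0.39) and 20 of 31 small-subunit genes (median -0.45) were lower. All 74 core genes had a change below 0 in both comparisons, between -1.09 and -0.27 in Th1 cells and between -0.86 and -0.06 in Th17 cells. In 80 of 83 members all Th1 arrays lay below all naive arrays, a pattern seen in 37.3% of everything tested. In 67 members all Th17 arrays did, against 34.9%.

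The median log2 level of the members was 8.08, 7.97 and 7.80 on the Th1 arrays, 7.99, 8.09 and 8.10 on the Th17 arrays, and 8.32, 8.59 and 8.45 on the naive arrays. The naive arrays were all above the other 6, and Th1 replicate 3 was the lowest. As a share of the summed signal of each array, the member probes took 8.33% ± 0.11 in Th1, 8.29% ± 0.12 in Th17 and 9.22% ± 0.19 in naive cells (SD, n = 3 each). This share divides by the total signal of the array, so it is close to scaling each array to the linear mean of all probes. Under that scaling the members' median change was -0.16 in Th1 and -0.15 in Th17 cells. There 28 members were lower in Th1 (background 14.3%) and 29 in Th17 cells (18.6%). The share did not overlap between either effector population and naive cells. In bulk RNA fewer cells of a type and less RNA per cell cannot be told apart.

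No member passed between Th17 and Th1 cells: limma called 0 of 83, and 0 had an unadjusted p under 0.05, where 7.5% of everything tested was called lower in Th17 cells and 8.26% higher. The median difference was 0.11. The sign of that median turned under 6 other scalings, so no direction can be given between the effector populations.

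Read from the brightest probe of each gene, the member with the largest fall was Rps19, which had 1 kept probe. In a fit of all kept probes, dimmer probes of Rpl31 (-1.16) and Rpl17 (-0.99) fell further in Th17 cells. In Th1 cells a very dim probe of another member reached -1.66. Rps19 is a small-subunit assembly protein whose loss of 1 copy causes Diamond-Blackfan anaemia in humans. Its log2 level was 6.81, 6.58 and 6.47 on the Th1 arrays, 6.92, 6.88 and 6.75 on the Th17 arrays, and 7.57, 7.78 and 7.78 on the naive arrays. The groups of effector and naive arrays did not overlap, and the change was -1.09 ± 0.12 (SE, adjusted p = 0.000136) in Th1 and -0.86 ± 0.12 (adjusted p = 0.000468) in Th17 cells.

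Rps7, a small-subunit protein needed for processing of the small-subunit rRNA, measured 7.60, 7.37 and 7.42 in Th1, 7.68, 7.56 and 7.57 in Th17, and 8.20, 8.44 and 8.39 in naive cells. It fell by 0.88 on the log2 scale in Th1 cells (adjusted p = 0.000237) and by 0.74 in Th17 cells (adjusted p = 0.000568). Rps21, a small protein of the small subunit, measured 7.02, 6.86 and 6.68 in Th1, 6.86, 6.87 and 6.86 in Th17, and 7.53, 7.72 and 7.70 in naive cells. In each of these genes every effector array was below every naive array.

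Among large-subunit genes, Rpl36a measured 6.57, 6.58 and 6.31 in Th1, 6.61, 6.60 and 6.61 in Th17, and 7.15, 7.44 and 7.40 in naive cells. Its changes were -0.84 (adjusted p = 0.00052) in Th1 and -0.72 (adjusted p = 0.00109) in Th17 cells. Rpl39, a small protein that lines the peptide exit tunnel, had the second largest fall in Th17 cells when genes were read from their brightest probe. It measured 7.73, 7.60 and 7.33 in Th1, 7.50, 7.43 and 7.24 in Th17, and 8.11, 8.34 and 8.28 in naive cells, a change of -0.85 ± 0.13 in Th17 (adjusted p = 0.000903) and of -0.69 in Th1 cells (adjusted p = 0.00277). The other members with large falls were Rpl31 (-0.81 in Th1 and -0.70 in Th17 cells), Rps3a1 (-0.76 and -0.78 in the same order), Rpl17 (-0.64 and -0.74) and Rpl35a (-0.69 and -0.73).

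**Figure D2:**
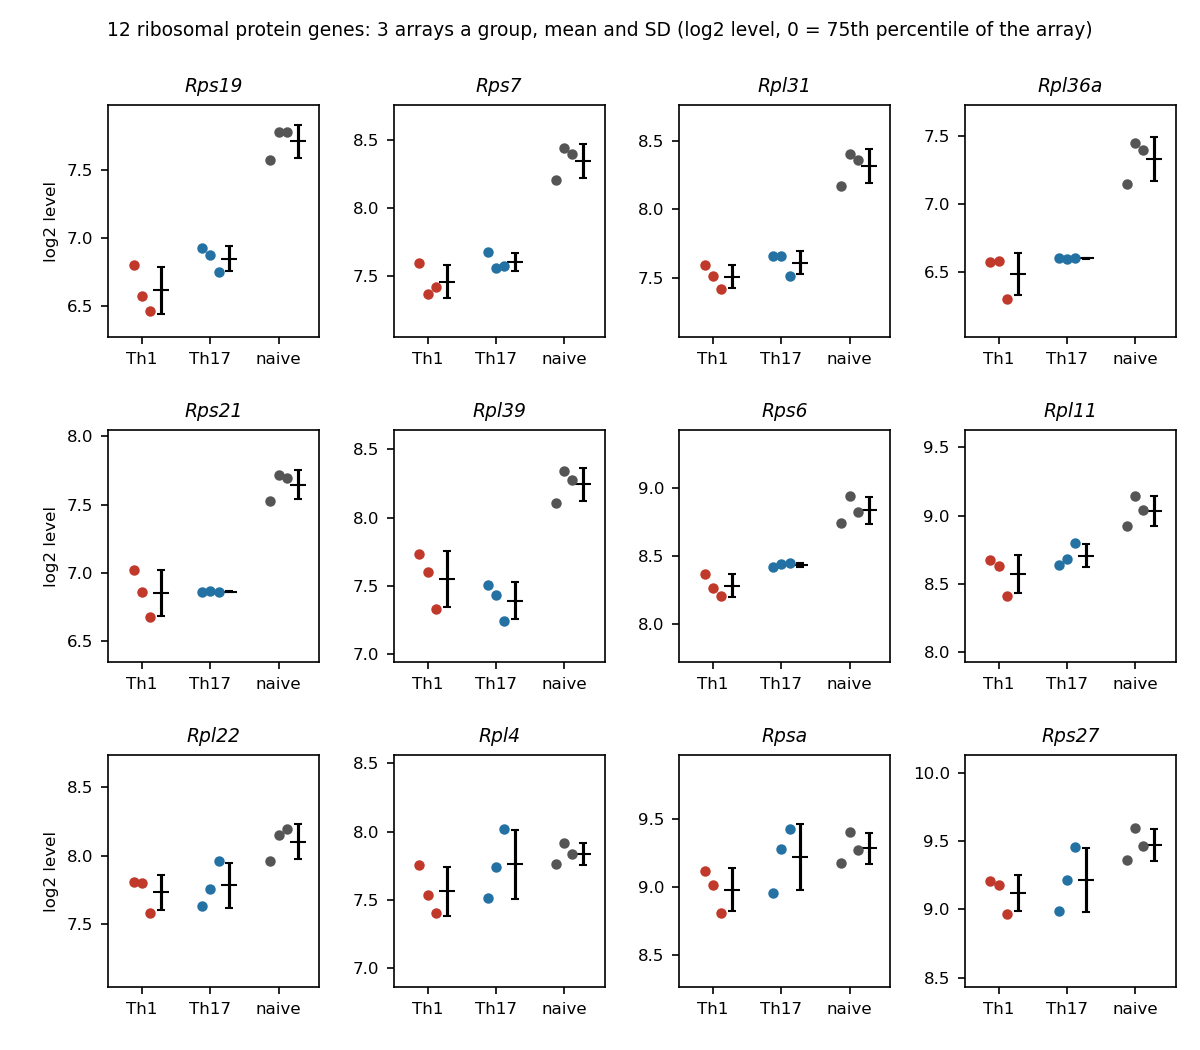
Log2 level (0 is the 75th percentile of the array) of 12 ribosomal protein genes on each of 3 arrays a group, with the group mean and SD beside the points. Every panel spans the same height, so that the gap between effector and naive points can be compared: it is widest for Rps19, and for Rpl4, Rpsa and Rps27 the Th17 points reach into or past the naive range.

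Members known for particular roles fell as well. Rps6, the protein phosphorylated by S6 kinase downstream of mTORC1, averaged 8.28 ± 0.08 in Th1, 8.44 ± 0.02 in Th17 and 8.83 ± 0.10 in naive cells (SD, n = 3), with adjusted p of 0.00131 and 0.00662 for Th1 and Th17 against naive cells (limma). Rps3, which sits at the mRNA entry channel, changed by -0.68 in Th1 and -0.61 in Th17 cells. Rpl5 and Rpl11 form the 5S particle that binds Mdm2 when ribosome assembly fails. Rpl5 changed by -0.69 in Th1 and -0.51 in Th17 cells, and Rpl11 by -0.46 and -0.33. The core protein Rpl3, near the peptidyl transferase centre, changed by -0.75 in Th1 and -0.61 in Th17 cells. All of these passed in both comparisons.

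Rpl10a (-0.46 in Th1 and -0.31 in Th17 cells), Rpl13a (-0.55 and -0.46), Rps25 (-0.54 and -0.45) and Rpl38 (-0.40 and -0.42) also passed in both. Rpl38 is known from mouse mutants for selective translation of Hox mRNAs and Rps25 for internal initiation. Rps2, at the mRNA entry channel, and Rpl24, whose mutation gives the mouse Belly spot and tail phenotype, passed in Th1 cells and missed the threshold in Th17 cells. Rps2 had -0.45 in Th1 and -0.24 in Th17 cells, and Rpl24 had -0.40 and -0.26. Their difference between Th17 and Th1 cells did not pass. Rps2 lacked a value on 1 Th17 array, so its fit rests on 8 arrays.

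Read from their brightest probe, 5 core genes did not pass in Th1 cells: Rps27 (-0.36, adjusted p = 0.0618), Rps20 (-0.32, adjusted p = 0.0754), Rps14 (-0.31, adjusted p = 0.0711), Rpsa (-0.30, adjusted p = 0.114) and Rpl4 (-0.27, adjusted p = 0.156). None of them passed in Th17 cells. In a fit of all kept probes, 2 of these genes had probes that passed: 3 of 4 Rps27 probes were lower in Th1 and 2 in Th17 cells, and 2 of 4 Rpsa probes were lower in each comparison, down to -0.84 in Th1 and -0.71 in Th17 cells. For Rpsa, also known as the laminin receptor, the levels were 9.12, 9.02 and 8.81 in Th1, 8.95, 9.28 and 9.43 in Th17, and 9.18, 9.41 and 9.27 in naive cells. The Th17 arrays of Rpsa spanned the naive ones. Rpl4, a large-subunit protein of the exit tunnel, measured 7.76, 7.53 and 7.40 in Th1, 7.52, 7.74 and 8.02 in Th17, and 7.76, 7.92 and 7.83 in naive cells.

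**Figure D3:**
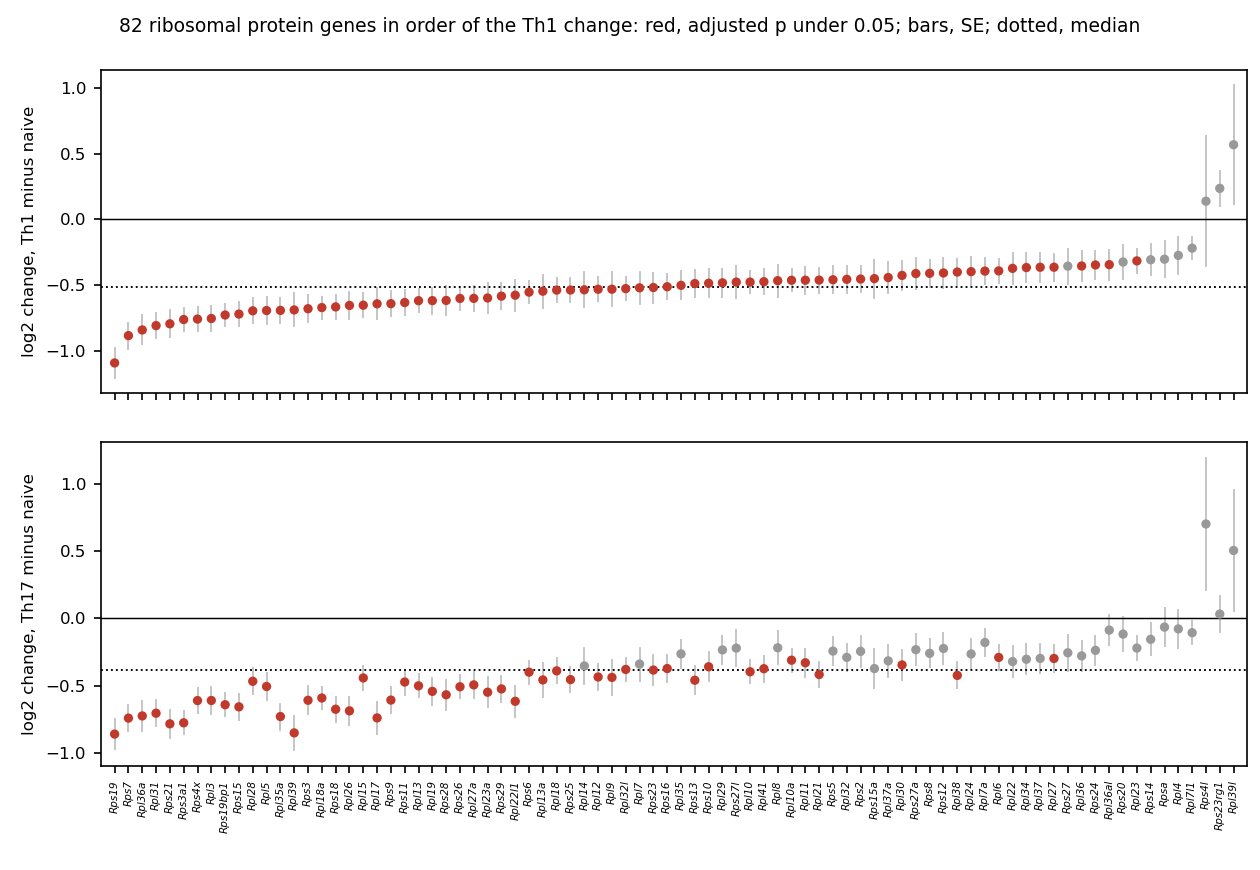
Log2 change of 82 of the 83 tested ribosomal protein genes in Th1 (above) and Th17 cells (below) against naive cells, in order of the Th1 change, with SE bars. Red points passed at adjusted p under 0.05 and grey points did not, the dotted lines are the medians of all 83 (-0.51 and -0.38), and the wide bars at the right are the dim paralogs Rps4l and Rpl39l.

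Of 7 tested paralogs 4 were lower in Th1 and 2 in Th17 cells, where 30.4% and 29.7% of everything tested was called lower. The Th17 count was thus near the background share. Rpl22 is required for development of alpha-beta T cells in mice, and its paralog Rpl22l1 rises when Rpl22 is lost. Here Rpl22l1 measured 7.02, 6.81 and 6.68 in Th1, 6.74, 6.78 and 6.87 in Th17, and 7.23, 7.53 and 7.48 in naive cells, a change of -0.58 in Th1 (adjusted p = 0.00476) and -0.62 in Th17 cells (adjusted p = 0.00337). Rpl22 measured 7.81, 7.80 and 7.58 in Th1, 7.63, 7.76 and 7.96 in Th17, and 7.96, 8.15 and 8.19 in naive cells, a change of -0.37 in Th1 (adjusted p = 0.0331) and -0.32 in Th17 cells (adjusted p = 0.0577). Under quantile normalization and cyclic loess the Rpl22 value in Th1 cells was above 0 (0.11 and 0.05).

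Rpl36al, an autosomal paralog of the X-linked Rpl36a, changed by -0.34 in Th1 (adjusted p = 0.0403) and -0.09 in Th17 cells (adjusted p = 0.566). Rps27l, a p53 target, changed by -0.48 in Th1 (adjusted p = 0.0165) and -0.22 in Th17 cells (adjusted p = 0.232), with 1 Th17 array missing. Rps27 did not pass by its brightest probe, but 3 of its 4 probes passed in Th1 and 2 in Th17 cells in the fit of all probes. Rps4x, the X-linked small-subunit protein, changed by -0.76 in Th1 and -0.61 in Th17 cells. Its paralog Rps4l and the paralog Rpl39l were dim, with SE of 0.50 and 0.46, and did not pass. Rpl7 changed by -0.52 in Th1 (adjusted p = 0.00937) and -0.34 in Th17 cells (adjusted p = 0.0544), whereas Rpl7l1 had -0.22 and -0.11 and passed in neither. Rpl10 changed by -0.48 in Th1 and -0.40 in Th17 cells. Ribosomal protein genes have many near-identical copies and pseudogenes, and the probe sequences were not used here, so a probe may also read transcripts of copies.

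The 2 members that are not core proteins went separate ways. Rps19bp1 measured 3.68, 3.70 and 3.59 in Th1, 3.78, 3.78 and 3.66 in Th17, and 4.31, 4.48 and 4.36 in naive cells, with changes of -0.73 and -0.64 in Th1 and Th17 cells (adjusted p = 0.000289 and 0.00052). Rps23rg1 had 0.24 in Th1 (adjusted p = 0.193) and 0.03 in Th17 cells (adjusted p = 0.861).

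Several probes were available for 50 of the members, 136 probes in all. Of these, 122 were lower and 0 higher in Th1 cells, and 98 were lower and 0 higher in Th17 cells. Of all 23307 kept probes 30.6% were called lower and 23.5% higher in Th1 cells, and 29.6% and 24.7% in Th17 cells. In 48 of the 50 genes every probe had a change below 0 in Th1 cells. No gene had probes called in opposite directions. Probes of a gene share the RNA sample and may overlap in sequence.

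The dependence on scaling was large. Quantile normalization, which gives every array the same distribution of values, left 16 members lower in Th1 cells (27.6% of everything tested was called lower) and 24 in Th17 cells (28.5%), with medians of -0.11 in both. Cyclic loess left 18 in Th1 (background 23.8%) and 22 in Th17 cells (25.4%), with medians of -0.06 in both. After quantile normalization the members' share of lower calls lay below the background share in Th1 cells and near it in Th17 cells. Of the members 0 were then called higher in either comparison, where 23.2% of everything tested was called higher in Th1 and 24.4% in Th17 cells. Rps19 was still lower under quantile normalization, by -0.62 in Th1 (adjusted p = 0.0012) and -0.50 in Th17 cells (adjusted p = 0.0032). Rps7, Rps21, Rpl36a and Rpl31 also passed in both comparisons, whereas Rps6 (-0.13 in Th1 and -0.12 in Th17 cells) did not. The values of Rpl10a, Rpl11, Rpl24 and Rpl38 lay so close to 0 after cyclic loess that their sign in Th1 cells turned.

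Scalings that shift each array by a constant moved the counts as well. With the median of all probes 80 members were lower in Th1 (39.9% of everything tested) and 67 in Th17 cells (34.2%). With the 75th percentile of probes above background on all arrays the counts were 55 (23.2%) and 45 (25.8%), and with 13 housekeeping genes 53 (22.3%) and 40 (23.9%). With the linear mean of all probes they were 28 (14.3%) and 29 (18.6%), and with no scaling 9 (12.2%) and 35 (22.7%). With the mean log2 of probes above background on all arrays 72 members were lower in Th1 (28.1%) and 49 in Th17 cells (27.8%), and with the authors' own log2 values 72 (30.8%) and 57 (30.6%). The share of all calls that were higher in Th1 cells was 43.6% with the 75th percentile of all probes and 55.1% with that of probes above background on all arrays.

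Background correction changed the result through a few spots. With normexp (a model of local background) and the 75th percentile, 0 members were called by limma in Th1 cells (2.83% of everything tested was called lower, and 49 members had an unadjusted p under 0.05) and 0 in Th17 cells (2.79%, with 0 at an unadjusted p under 0.05). On Th1 replicate 2, 5 spots had a very high local background, and on Th17 replicate 3 there was 1. With those backgrounds replaced by the array's median, 75 members were lower in Th1 (27.4%) and 64 in Th17 cells (24.6%). The replacement moved the log2 75th percentile of Th1 replicate 2 from 11.4 to 9.35 and left that of Th17 replicate 3 at 9. The Th17 median was -0.41 before and after it. All 9 arrays share 1 estimate of the spread in the fit, so Th1 replicate 2 also enters the Th17 calls. With normexp and quantile normalization 22 were lower in Th1 (27.1%) and 32 in Th17 cells (27.8%).

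Agilent adds a mixture of viral E1A transcripts to the RNA at labelling, and 7 of 10 such probes were above background. Scaled to their mean, 0 members were called in either comparison by limma, and at an unadjusted p under 0.05 there were 0 lower and 1 higher in Th1 cells and 15 lower and 0 higher in Th17 cells. On that scale the members had a median of -0.04 in Th1 (5.72% of everything tested was called lower) and -0.35 in Th17 cells (12.3%). Everything tested had a median of 0.38 in Th1 cells, with 26.4% called higher, and of -0.06 in Th17 cells, with 14.6% called higher. The members' median signal minus the spike-in mean was 5.59, 5.23 and 5.31 in Th1, 5.37, 5.08 and 4.67 in Th17, and 5.45, 5.22 and 5.53 in naive cells. The Th1 and naive arrays overlapped on that scale. The spike-in mean relative to the 75th percentile averaged 2.57 ± 0.15 in Th1, 3.02 ± 0.40 in Th17 and 3.05 ± 0.28 in naive cells (SD, n = 3). The Th1 fall below naive cells was seen relative to the other probes of the array, and it was not detectable on the spike-in scale with these arrays. In Th17 cells the median on the spike-in scale, -0.35, stayed near the -0.38 of the 75th percentile, but 0 members were called. The members' median minus the spike-in mean had an SD of 0.35 between the Th17 arrays (n = 3). These arrays therefore cannot settle whether the Th17 fall was only relative, and 0 calls on this scale do not settle it for Th1 cells.

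Members were also set against other probes of like brightness on the same arrays. Probes with a mean log2 signal above 7 numbered 603, of which 74 belonged to members and 89 to other named coding genes. The limit of 7 was chosen after the values were seen. In Th1 cells the members in this range had a median change of -0.52 and the other coding genes -0.18 with the 75th percentile. With quantile normalization these were -0.11 and 0.23, and with cyclic loess -0.05 and 0.26. The difference between members and other coding genes was therefore -0.34, -0.34 and -0.31. In Th17 cells it was -0.29, -0.30 and -0.29. Scalings that shift an array by a constant cannot alter this difference, so of the scalings computed here and drawn only quantile normalization and cyclic loess could move it. With the authors' values, also drawn, it was -0.34 in Th1 and -0.296 in Th17 cells, the latter against -0.291 with the 75th percentile. The difference was not tested, since genes are not replicates. A bright probe need not mean an abundant mRNA, so the 89 genes are matched to the members by probe signal only. They were mixed: with the 75th percentile 32 were called lower and 9 higher in Th1 cells. Among the 32, Eef2 (-0.73), Npm1 (-0.58) and Naca (-0.54) fell at least as far as the members' median. The difference is therefore not particular to the members among all bright genes.

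Another 421 of the 603 bright probes had no gene symbol, and their medians were -0.53 in Th1 and -0.42 in Th17 cells, near those of the members. Quantile normalization forces this bright range to the same values on every array. In it, 39 of the 89 other coding genes were called higher in Th1 cells after quantile normalization, against 9 with the 75th percentile.

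**Figure D4:**
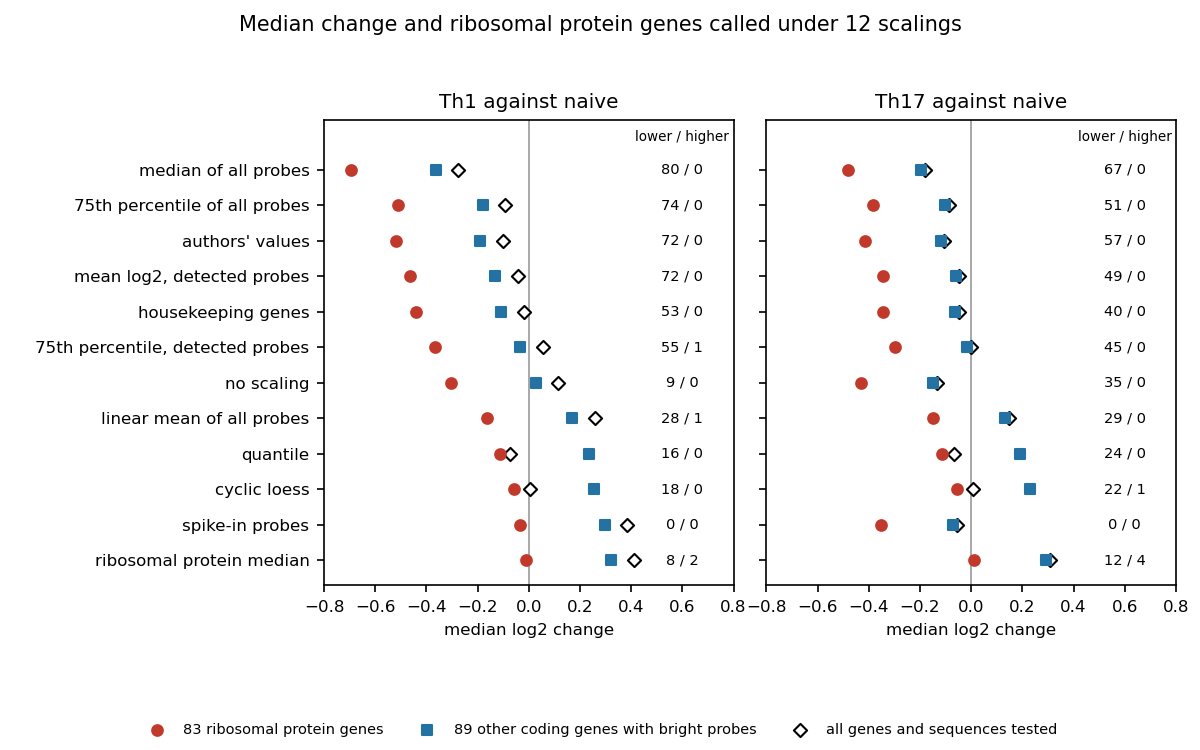
Median log2 change in Th1 (left) and Th17 cells (right) against naive cells under 12 scalings, for 83 ribosomal protein genes (red circles), 89 other coding genes with bright probes (blue squares) and everything tested (open diamonds), with the numbers of members called lower and higher at the right of each panel. The red circles move with the scaling from -0.69 to -0.01 in Th1 cells. Their distance to the blue squares is fixed by construction except under quantile normalization, cyclic loess and the authors' values.

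Among the 74 core genes the change also varied with probe brightness. The Pearson correlation between mean brightness and change was 0.66 in Th1 and 0.64 in Th17 cells (n = 74 genes that share the same arrays). Core genes with brightness under the median had a median change of -0.65 in Th1 cells and those above it -0.46. In Th17 cells these were -0.54 and -0.31. After quantile normalization the correlation was 0.38 in Th1 and 0.24 in Th17 cells. No spot was saturated on any array. Whether the probes' response at high signal has a part in this was not tested.

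**Figure D5:**
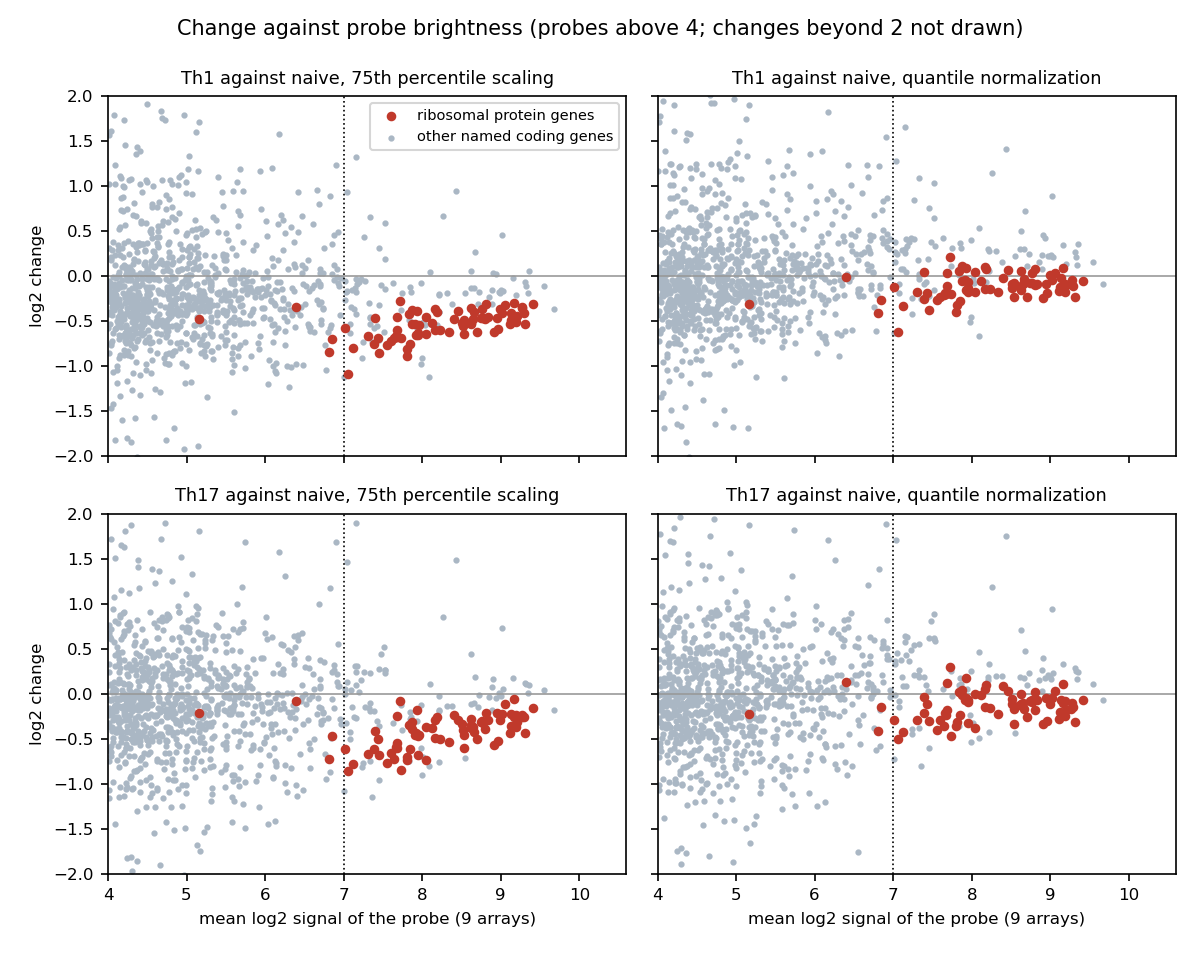
Log2 change against naive cells (vertical) by mean log2 signal of the probe (horizontal, 0 is the 75th percentile) for Th1 (top) and Th17 cells (bottom), with 75th percentile scaling (left) and quantile normalization (right). Ribosomal protein genes (red) lie below most other named coding genes (grey) of like brightness in all panels, and the dotted line marks a signal of 7.

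To see which members departed from the others, each array was also centred on the median deviation of the members, which removes their common shift. In Th1 cells 8 members were then lower and 2 higher than the module, where 9.83% of everything tested was called lower and 45.1% higher. In Th17 cells 12 were lower and 4 higher, against 13.3% and 40.1%. In both comparisons the members' share of lower calls was near the background share, so these counts alone do not set the members apart. Rps19 lay -0.59 ± 0.10 below the module in Th1 (adjusted p = 0.00166) and -0.47 ± 0.10 in Th17 cells (adjusted p = 0.00583), and passed each time 1 array was left out. Rps23rg1 lay 0.74 above it in Th1 cells (adjusted p = 0.00291), but with quantile normalization only 0.34 (adjusted p = 0.0617), which did not pass. In Th17 cells Rps21 (-0.39), Rps3a1 (-0.38) and Rpl39 (-0.46) also passed with each array left out. The counts depended on single arrays. Of 10 departures in Th1 cells, the count was 2 without naive replicate 3, 6 without naive replicate 2, and 6, 4 and 5 without Th1 replicate 1, 2 and 3. In Th17 cells the 16 departures became 4 without naive replicate 3, 7 without naive replicate 2 and 7 without Th17 replicate 2. Between Th17 and Th1 cells 0 members departed.

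The slides limit these comparisons. Slide 1 held all naive arrays with Th1 replicate 1, slide 2 held Th1 replicates 2 and 3 with Th17 replicates 1 and 2, and slide 3 held Th17 replicate 3. Within slide 1 the single Th1 array lay below all naive arrays in 80 of 83 members, a pattern seen in 44.9% of everything tested. The median there was -0.39, and 15 members passed (17.5% of everything tested was called lower), with the lone Th1 array assumed to vary as the naive arrays do. With slide as a block 34 members were lower in Th1 (median -0.39, background 21.7%) and 2 in Th17 cells (median -0.24, background 13.1%). No slide held Th17 and naive arrays together, so their block estimate runs through the Th1 arrays. Rps19 kept its place below the module in Th1 cells with slide as a block (-0.51, adjusted p = 0.0219), whereas in Th17 cells 0 members departed.

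The neighbouring parts of the translation machinery were read from lists of genes other than the members. Of 6 stalk and fusion proteins, 5 were lower in Th1 and 2 in Th17 cells, and 0 were higher. Rplp1, an acidic protein of the stalk that recruits elongation factors, measured 8.65, 8.61 and 8.43 in Th1, 8.54, 8.62 and 8.41 in Th17, and 9.10, 9.30 and 9.21 in naive cells. Rplp0, the base of the stalk, changed by -0.58 in Th1 (adjusted p = 0.00894) and -0.25 in Th17 cells (adjusted p = 0.17), and Rplp2 by -0.44 (adjusted p = 0.0215) and -0.29 (adjusted p = 0.101). Rack1, a scaffold on the small subunit, had -0.36 (adjusted p = 0.0594) and -0.11 (adjusted p = 0.516).

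Of 14 elongation factors and other genes with TOP mRNAs, 9 were lower and 1 higher in Th1 cells, and 6 were lower and 2 higher in Th17 cells. Eef1b2, the exchange factor of elongation factor 1, changed by -0.74 in Th1 (adjusted p = 0.00121) and -1.15 in Th17 cells (adjusted p = 0.000104). Eef2, the translocase, changed by -0.73 and -0.77 in the same order. The gene that was higher in both was Nap1l1, a histone chaperone, with 0.62 in Th1 and 0.77 in Th17 cells. Of 31 initiation factors, 14 were lower and 0 higher in Th1 cells, and 9 were lower and 2 higher in Th17 cells.

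Genes that build ribosomes were also lower more often than higher. Of 45 biogenesis factors 24 were lower and 5 higher in Th1 cells, and 20 and 6 in Th17 cells. Nmd3, the export adaptor of the large subunit, changed by -1.22 in Th1 (adjusted p = 3.56e-05) and -1.15 in Th17 cells (adjusted p = 4.37e-05). Of 11 tested RNA polymerase I genes 6 were lower and 1 higher in each comparison, and Polr1d, a subunit shared by polymerases I and III, changed by -1.17 and -1.03. Mitochondrial ribosomal proteins, which are encoded apart from the cytosolic ones, were mixed, with 35 of 77 lower and 13 higher in Th1 cells and 21 lower and 19 higher in Th17 cells. Their median was -0.25 in Th1 and -0.01 in Th17 cells. These counts stand beside the backgrounds of 30.4% and 23.5% in Th1 and of 29.7% and 24.4% in Th17 cells. After quantile normalization, where 27.6% of everything tested was called lower and 23.2% higher in Th1 cells and 28.5% and 24.4% in Th17 cells, the biogenesis list had 13 of 45 lower in each comparison, close to the background, with 6 higher in Th1 and 7 in Th17 cells. In Th1 cells the other lists then had 2 of 6 stalk and fusion proteins lower, 4 of 14 elongation and other TOP genes lower and 2 higher, 8 of 31 initiation factors lower and 0 higher, and 30 of 77 mitochondrial ribosomal proteins lower and 15 higher. In Th17 cells these counts were 1 lower for the stalk list, 5 lower and 4 higher for elongation, 8 lower and 5 higher for initiation, and 22 lower and 20 higher for mitochondrial ribosomal proteins.

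Of the regulators, Myc, which drives ribosome synthesis, measured 5.44, 4.46 and 4.71 in Th1, 5.49, 4.83 and 4.60 in Th17, and 5.66, 5.85 and 5.66 in naive cells. Every effector array lay below every naive one, and the values were -0.85 in Th1 (adjusted p = 0.0346) and -0.75 in Th17 cells (adjusted p = 0.0559). Mtor (-0.31 in Th1 and -0.36 in Th17 cells) and Larp1 (-0.07 and -0.11) did not pass. Eif4ebp1, the translation repressor that mTORC1 inactivates, had -0.15 in Th1 (adjusted p = 0.233) and rose by 1.12 in Th17 cells; its Th17 arrays read 4.96, 5.10 and 5.14, against 3.82, 4.07 and 3.96 on the naive arrays. Of 27 genes of mTORC1 and TOP mRNA control, 9 were lower and 3 higher in Th1 cells, and 8 and 7 in Th17 cells. Of 8 tested genes of the Myc network 4 were lower and 1 higher in Th1 cells, and 3 and 1 in Th17 cells. Of 14 genes of ribosome surveillance and the p53 axis, 9 were lower and 1 higher in Th1 cells, and 6 and 1 in Th17 cells. The 13 housekeeping genes were split, 3 lower and 3 higher in Th1 cells, and 2 and 3 in Th17 cells, with Actb higher by 0.46 and 0.73. Of everything tested, 30.4% was called lower and 23.5% higher in Th1 cells, and 29.7% and 24.4% in Th17 cells. The mTORC1 list's shares of lower calls were near these. After quantile normalization (27.6% and 23.2%, and 28.5% and 24.4%) that list had 9 lower and 6 higher in Th1 cells, and 8 and 8 in Th17 cells. The Myc network then had 3 and 1 in each comparison, and the surveillance list 8 and 1 in Th1 and 5 and 2 in Th17 cells. Of the housekeeping genes 2 were then lower and 7 higher in Th1 cells, and 2 and 3 in Th17 cells.

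The share of probes above background ran from 53.4% to 58.3% over the 9 arrays. Ifng averaged 9.12 ± 0.18 in Th1, 1.72 ± 0.48 in Th17 and 1.42 ± 0.17 in naive cells, and Il17a averaged 9.24 ± 0.24 in Th17 cells (SD, n = 3 each), with its highest value among the Th1 and naive arrays at 0.54. Cd4 and Cd3e were above background on all arrays. Of 15 markers of other cells 8 were tested, and in Th1 cells 2 were lower and 1 higher, in Th17 cells 2 lower and 4 higher. The summed linear level of these 8, relative to the 75th percentile, ran from 202.5 to 233.5 in Th1, from 206.9 to 239.0 in Th17 and from 179.2 to 186.2 in naive cells. Most of that sum was Siglech, known from plasmacytoid dendritic cells and named after its values were seen, which did not pass in either comparison (0.19 in Th1 and 0.26 in Th17 cells). The other 7 summed to 25.9 to 33.0 in Th1, 21.8 to 36.1 in Th17 and 17.7 to 17.8 in naive cells. Cd8b1 was lower in both effector groups (-3.31 in Th1 and -3.41 in Th17 cells), and the red cell gene Hbb-bt varied between arrays of a group. Among listed markers, Ms4a1 and Cd79b of B cells, Lyz2 of myeloid cells, Ncr1 of natural killer cells and Cd8a did not pass the filter on dim probes. Other markers of the same cell types did pass it, namely Cd79a of B cells, Itgam, Csf1r and Cd14 of myeloid cells, and Cd8b1. The part of other cells in the ribosomal protein result was not tested.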

How the data were processed

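RNA of 9 T cell samples was labelled with Cy3 and hybridised to 9 one-colour Agilent mouse arrays (design 026655). Per the file headers, spot intensity was read with Agilent Feature Extraction 10.7.3.1, and the submitters' processing notes name 10.5. The processed intensity in the deposited files is background-subtracted and not scaled between arrays. A second deposited table holds the authors' log2 values, whose baseline is not given in the sources used here. After an offset per array and a constant per probe it matched log2 of the 75th-percentile-scaled signal within 0.01 for 100% of 39429 probes.

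Here, control spots (1377 of 44397) and outlier spots were removed, and the log2 signal was set to the 75th percentile of each array, and then probes well above background on at least 3 of 9 arrays were kept (23307). Each gene was read from its brightest kept probe. Gene symbols came from RefSeq accessions (27234 probes had a symbol, 12195 did not). limma 3.58.1 (R 4.3.3, with version 1.17.8 of the data.table package) was fitted to all 9 arrays with group as the factor, and p-values were adjusted by Benjamini-Hochberg over 19134 genes and sequences. A call is an adjusted p under 0.05, and a level is a log2 value relative to the array's 75th percentile. The fit was tested on simulated data. The number of arrays limits the precision. Probe brightness was used only to group or order probes, since it also depends on probe design and does not rank genes by mRNA level.

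Members and lists were chosen with earlier results of these data known. Named genes were the 6 largest rises and falls among called members of each comparison, both members of 8 paralog pairs, members with well-known roles, members at least 0.5 from the ribosomal median and called there, and up to 4 genes by p in each list, with Myc, Mtor, Larp1, Eif4ebp1 and the housekeeping genes. Of these, only those a comparison turned on are printed, and a few genes that entered the counts are not reported here by name. Rps20 was named after its value was seen, as 1 of 5 core genes that did not pass. The labels give no pairing by replicate number. Residuals of same-numbered arrays of different groups correlated between -0.0076 and 0.176 (9 pairs). Those of differently numbered arrays correlated between -0.198 and 0.065 (18 pairs). Whether the numbers pair the samples is not settled by these values. Alternatives covered scaling, background correction, filters, probe choice, slide, replicate block and each array left out. The spike-in scaling, the replaced backgrounds, the leaving out of Rps19bp1 and Rps23rg1 and the alternatives for the centred comparison were added after the data were seen.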

Additional observations from a re-analysis of the deposited data

How the results depend on the processing

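The number of members called in Th1 against naive cells was 16 with quantile normalization, 18 with cyclic loess, 29 with the linear mean, 9 with no scaling, 10 with the ribosomal median, 0 with the spike-in probes, 0 with normexp and the 75th percentile, 22 with normexp and quantile normalization, 34 with slide as a block and 15 within slide 1. The median change was in the same order -0.11, -0.058, -0.16, -0.30, -0.0096, -0.036, -1.20, -0.12, -0.39 and -0.39, and it was -0.36 with the 75th percentile of probes above background on all arrays and -0.69 with the median of all probes. In Th17 against naive cells the counts were 24 with quantile normalization, 23 with cyclic loess, 29 with the linear mean, 16 with the ribosomal median, 0 with the spike-in probes, 0 with normexp and the 75th percentile, 33 with normexp and quantile normalization and 2 with slide as a block. Medians there were -0.11, -0.055, -0.15, 0.011, -0.12 and -0.24 with quantile normalization, cyclic loess, the linear mean, the ribosomal median, normexp with quantile normalization and slide as a block. Between Th17 and Th1 cells the median turned to -0.023 with quantile normalization, -0.0026 with cyclic loess, -0.0070 with the linear mean, -0.15 with no scaling, -0.34 with the spike-in probes and -0.033 with normexp and quantile normalization, and was 0.75 with normexp and the 75th percentile. Members departing from the ribosomal median numbered 4 (slide as a block) and 6 (quantile normalization) in Th1 cells, and 0 with slide as a block in Th17 cells. The array with 5 spots of very high local background, Th1 replicate 2, had a log2 75th percentile of 11.4 after normexp and 9.35 with those backgrounds replaced. The cause of the other shifts was not tested.

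Leaving out 1 array at a time gave 56 to 74 calls in Th1 (median -0.58 to -0.45), 40 to 58 in Th17 (median -0.44 to -0.34) and 0 to 0 between Th17 and Th1 cells (median 0.053 to 0.16). Departures from the ribosomal median numbered 2 to 8 in Th1 and 4 to 14 in Th17 cells. For these fits and for the replicate block the share of everything tested is not given here, so the counts stand without a background. With the replicate block 69 members were called in Th1 and 47 in Th17 cells. Whether the replicate numbers pair the samples is not settled.

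Single genes turned in sign as follows in Th1 against naive cells. With cyclic loess the values were 0.016 for Rpl36al, 0.052 for Rpl22, 0.00069 for Rpl10a, 0.0022 for Rpl11, 0.041 for Rpl24, 0.059 for Rpl38 and 0.037 for Rplp2. With the ribosomal median they were 0.16 for Rpl36al, 0.026 for Rpl10, 0.13 for Rpl22, 0.026 for Rps27l, 0.049 for Rps2, 0.040 for Rpl10a, 0.040 for Rpl11, 0.11 for Rpl24, 0.10 for Rpl38 and 0.060 for Rplp2. With the spike-in probes they were 0.13 for Rpl36al, 0.10 for Rpl22, 0.023 for Rps2, 0.014 for Rpl10a, 0.014 for Rpl11, 0.079 for Rpl24, 0.076 for Rpl38 and 0.034 for Rplp2. With quantile normalization they were 0.11 for Rpl22, 0.037 for Rps2 and 0.075 for Rpl24, with normexp and quantile normalization 0.12, 0.037 and 0.091 for the same genes, and with the linear mean 0.0055 for Rpl36al. With normexp and the 75th percentile Nap1l1 had -0.0089 and Actb -0.20. In Th17 against naive cells Rpl10a had 0.033 with cyclic loess, 0.084 with the ribosomal median and 0.0084 with normexp and quantile normalization, and Rpl11 had 0.014 with cyclic loess and 0.065 with the ribosomal median. Of the other values of single genes, 423 lost the threshold, 84 gained it and 4006 kept direction and side.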
